A study of Mus musculus with 28 samples.

Results

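Smooth muscle and pericyte genes were followed across the 8 groups of the pituitary count table. The set held 9 of the 32594 genes in the table, namely Acta2, Tagln, Myh11, Cnn1, Des, Myl9, Rgs5, Pdgfrb and Notch3. Acta2 was chosen by its change after the combined treatment in these same mice, so its values in that comparison are given as a description with no test. The other 8 genes were taken as known markers of mural cells, at a time when earlier results of these data were known. The study asked how a night of paradoxical sleep deprivation (PSD) changes the transcriptional response of the pituitary to a later stressor in each sex. C57BL/6J mice that were 8 weeks old on arrival were housed by sex, and every mouse, home cage controls included, was first habituated to the deprivation tanks for 1 h daily on 3 days. PSD mice then spent 12 h on small columns above water, where the loss of muscle tone in rapid-eye movement sleep wakes the animal, and pituitaries were taken 18 h after the end of PSD. Restrained mice were held in a restrainer for 20 min and killed 10 min after its end. The groups were home cage control without restraint (4 females, 4 males), home cage with restraint (4 females, 2 males), PSD without restraint (4 females, 3 males) and PSD followed by restraint (4 females, 3 males), with 28 mice and 1 library per mouse.

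Mural cells wrap the endothelial tube of blood vessels. Smooth muscle cells around arterioles contract by an apparatus of smooth muscle actin (Acta2) and smooth muscle myosin (Myh11), whose regulatory light chain is encoded by Myl9, with transgelin (Tagln) and calponin (Cnn1) bound to the actin filaments. Desmin (Des) forms intermediate filaments in muscle cells and pericytes. Pericytes sit on capillaries and carry the PDGF receptor beta chain (Pdgfrb), the Notch3 receptor and Rgs5, a regulator that shortens G protein signalling. Serum response factor (SRF), with its myocardin family partners, is known to drive the contractile genes through a DNA element named the CArG box. The anterior pituitary is densely vascularised, and its portal vessels and sinusoids are lined by fenestrated endothelium.

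Library totals ran from 14024465 to 52948531 counts. The tissue carried its defining endocrine transcripts in every mouse, with Gh at 59900 to 226000 and Prl at 30900 to 232000 CPM (counts scaled to an equal library total). Male control 1 stood apart by little transcript of neurointermediate lobe markers, and female PSD mouse 1 and female PSD + restraint mouse 4 stood apart by high forebrain markers. Main results are therefore also given without these 3 mice.

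The promoter sequences that bear on the contractile genes are shown first because Acta2 and Myl9 are among the genes with results below. Promoters were found in the RefSeq table of GRCm38.p6 for 6 of the 9 genes, namely Acta2, Cnn1, Des, Myl9, Rgs5 and Notch3, and the 250 bases before each start site were searched on both strands. None was found for Tagln, Myh11 or Pdgfrb, so their promoters were not searched. The CArG box (2 C bases, 6 bases that are A or T, and 2 G bases) was found in 1 of the 6, Myl9, and in 1.47% of 32817 promoters of the same length. A CArG-like motif that allows at most 1 C or G among the 6 middle bases, a rule set after the sequences had been seen and one that includes the CArG box, was found in 2 of the 6 and in 8.6% of all promoters. Each match is shown with 10 bases on either side, on the strand of the gene, with the match in capitals.
Acta2, chr19:34255438-34255467, minus strand, first base of the match 84 bases before the start: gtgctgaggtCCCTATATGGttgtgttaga
Acta2, chr19:34255388-34255417, minus strand, 34 bases before the start: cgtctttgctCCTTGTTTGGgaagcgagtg
Myl9, chr2:156775293-156775322, plus strand, 161 bases before the start: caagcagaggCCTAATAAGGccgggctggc
Myl9, chr2:156775355-156775384, plus strand, 99 bases before the start: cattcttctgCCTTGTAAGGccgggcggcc
The first Myl9 match is the strict CArG box, and the other 3 each hold 1 C or G in the middle. GENCODE M21 starts Acta2 further upstream than RefSeq, so that all 30 bases of each Acta2 stretch lie within an annotated exon, whereas the Myl9 stretches lie outside exons.

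The genes lie on 7 chromosomes of GRCm38. Acta2 spans chr19:34241090-34255590 on the minus strand and shares no 76-base stretch, the read length used, with any other gene of the annotation, the other actin genes included. Myl9 spans chr2:156775420-156781658 on the plus strand, and Notch3 spans chr17:32120820-32166852 on the minus strand. Tagln spans chr9:45929619-45936058 on the minus strand, and 67.9% of its exon bases are overlapped by Pcsk7 and Gm48529 on the plus strand. Whether reads were counted by strand is not given in the sources used here, so the values of Pcsk7, a proprotein convertase gene, are set beside those of Tagln. For Des and Notch3 the overlap with antisense genes was 5.86% and 6.03% of exon bases, and for the other members it was 0.

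Levels were compared between genes per kilobase of exon in the home cage controls. Myl9 stood highest at 10.7 ± 0.854 CPM per kb in females and 12.9 ± 0.504 in males (SD, n = 4 each), followed by Rgs5 at 7.67 ± 0.782 and 10.7 ± 1.14, and these 2 genes did not overlap in either sex. Tagln followed at 4.09 ± 0.702 and 4.27 ± 0.682 CPM per kb and Pdgfrb at 3.37 ± 0.214 and 3.3 ± 0.451, and the values of Tagln and Pdgfrb overlapped. Notch3 at 2.23 ± 0.307 and 2.08 ± 0.285 CPM per kb overlapped with Acta2 at 1.92 ± 0.496 and 2.04 ± 0.646. Des (0.508 ± 0.0732 and 0.539 ± 0.0897 CPM per kb) overlapped with Myh11 (0.335 ± 0.107 and 0.354 ± 0.0732) and lay below Acta2 in every control. Cnn1 was close to the limit of detection at 0.0214 ± 0.0168 and 0.0217 ± 0.0128 CPM per kb. It had 0 to 7 counts per mouse and 98 counts in all 28 mice.

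Acta2, the gene that was chosen by its response, had 5.6, 4.52, 3.22 and 3.48 CPM in the 4 female controls and 7.98, 6.49, 8.07 and 10.9 CPM in the 4 females given PSD and restraint. In males it had 2.78, 5.45, 3.87 and 5.83 CPM in controls and 8.89, 9.24 and 7.19 CPM after PSD and restraint. All mice of the combined treatment lay above all controls of their sex. The log2 fold change against control was 0.99 ± 0.21 (SE) in females, 0.92 ± 0.21 in males and 0.95 ± 0.15 in all mice, a 1.93-fold higher level. Without the 3 mice that stood apart it was 0.80 in all mice. In the remaining groups Acta2 had 5.20, 5.86, 5.75 and 3.49 CPM in restrained females and 4.23 and 4.43 CPM in restrained males. After PSD alone it had 7.48, 6.11, 7.46 and 5.34 CPM in females and 7.12, 7.14 and 5.92 CPM in males. Restrained mice overlapped with controls in both sexes, whereas males after PSD alone all lay above the male controls and 3 of 4 females after PSD alone lay above the female controls. The share of all genes whose groups of mice did not overlap was not determined, so lack of overlap is only a description here and below.

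**Figure D1:**
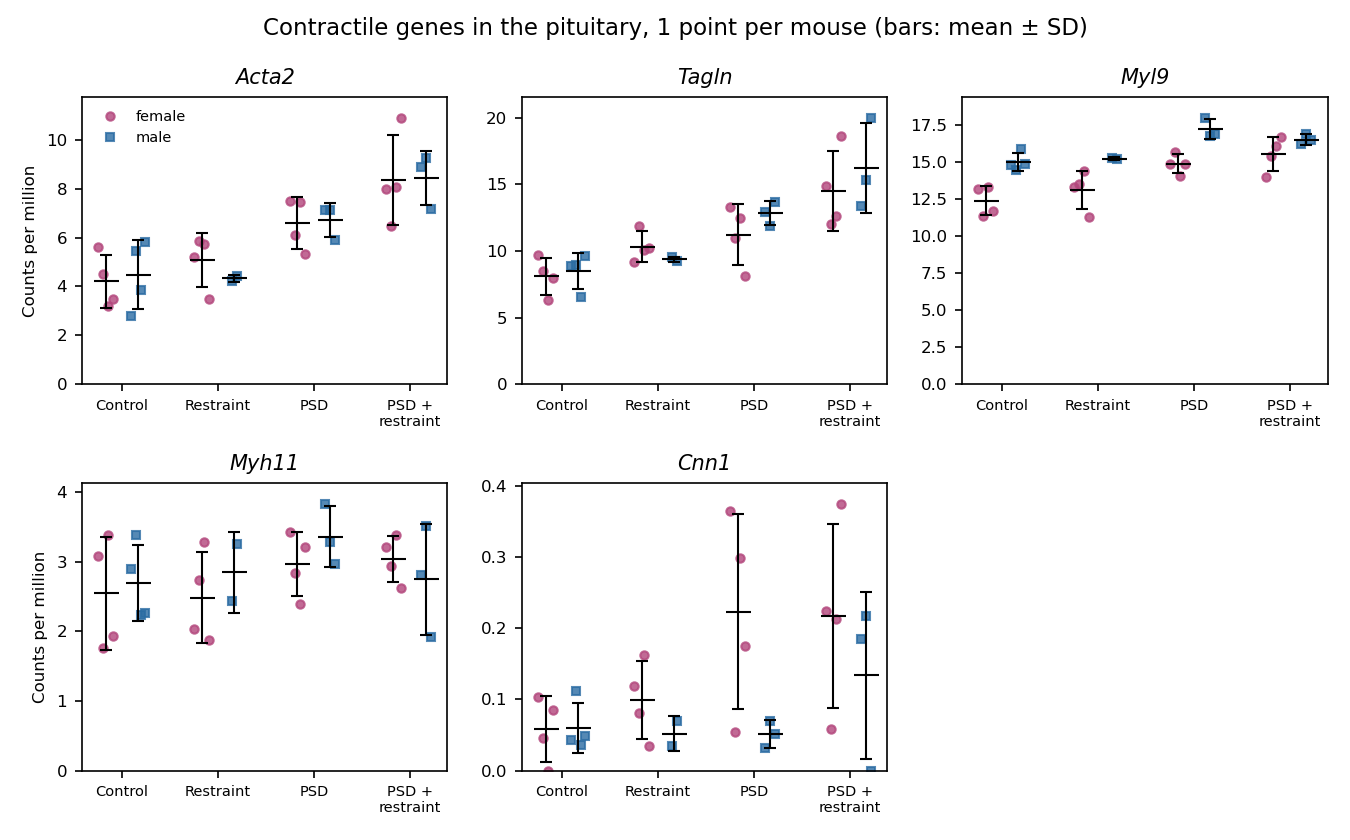
CPM (y axis, from 0) of the 5 contractile genes in each mouse, by treatment (x axis), with females as circles and males as squares and the mean ± SD as black bars. Acta2 and Tagln after PSD + restraint sit above every control of the same sex, Myh11 overlaps in all groups, and Cnn1 stays at or under 0.374 CPM.

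Tagln and Notch3 rose after PSD + restraint in the model of all 28 mice, and Tagln rose in each sex alone. A gene was called changed when its adjusted p in edgeR's quasi-likelihood test was at most 0.05 and its log2 fold change was at least 0.322 in size. By this rule 2 of the 8 genes other than Acta2 were called after PSD + restraint in all mice, where 5.46% of 18936 genes tested were called. In females 2 of the 7 tested were called, Tagln and Myl9, against 2.2% of 18059 genes tested. In males 1 of the 7 tested was called, Tagln, against 2.56% of 18271 genes tested. Cnn1 was tested in the model of all mice but was too low to be tested in either sex alone.

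Transgelin, the actin-binding protein of contractile smooth muscle, was encoded by the member with the clearest tested response. Tagln had 9.68, 8.50, 6.32 and 7.98 CPM in female controls and 14.9, 12.0, 12.6 and 18.6 CPM in females after PSD + restraint. In males it had 8.87, 8.93, 6.53 and 9.65 CPM in controls and 13.4, 15.3 and 20.0 CPM after PSD + restraint. The 2 groups did not overlap in either sex. The log2 fold change was 0.84 ± 0.17 in females (adjusted p = 0.0163), 0.92 ± 0.14 in males (adjusted p = 0.00567) and 0.87 ± 0.12 in all mice (adjusted p = 1.26e-05), and the level was higher than every control in 7 of 7 mice. In females the call was lost without control 4 (adjusted p = 0.0566) and without PSD + restraint mouse 1 (adjusted p = 0.056), with log2 fold changes of 0.83 and 0.82. Without the 3 mice that stood apart the log2 fold change was 0.81 in all mice (adjusted p = 9.57e-05). Pcsk7, whose exons overlap those of Tagln, had log2 fold changes of -0.06 ± 0.08 in females and 0.08 ± 0.08 in males in the same comparison, with 22.8 to 26 CPM in female controls and 19.8 to 25.5 CPM after PSD + restraint.

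Myl9, the regulatory light chain on which smooth muscle contraction turns, moved less. Its levels were 13.2, 11.4, 13.3 and 11.7 CPM in female controls and 14.0, 15.4, 16.1 and 16.7 CPM after PSD + restraint, with no overlap. In males it had 14.8, 14.5, 15.9 and 14.9 CPM in controls and 16.2, 16.9 and 16.5 CPM after PSD + restraint, again with no overlap, although it was not called in males. The log2 fold change was 0.33 ± 0.08 in females (adjusted p = 0.0457), close to the size limit, and 0.14 ± 0.07 in males (adjusted p = 0.29). Over all mice it was 0.24 ± 0.05 with an adjusted p of 0.00311, below the size limit. The call in females was lost in 13 of 16 fits with 1 mouse left out (adjusted p from 0.0312 to 0.137 over the 16) and without the 3 mice that stood apart (0.29, adjusted p = 0.125).

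Smooth muscle myosin, calponin and desmin were not called after PSD + restraint. Myh11 ran from 1.76 to 3.39 CPM in female controls and from 2.62 to 3.38 CPM in females after PSD + restraint, and from 2.24 to 3.39 and from 1.92 to 3.51 CPM in males, so the groups overlapped. Its log2 fold change was 0.25 in females, 0.05 in males and 0.16 in all mice, with a 95% interval of -0.15 to 0.48 in all mice. Des had log2 fold changes of 0.16 in females, -0.10 in males and 0.03 in all mice, with an interval of -0.29 to 0.34. Cnn1 had counts of 5, 1, 0 and 3 in female controls and 3, 3, 7 and 7 in females after PSD + restraint, and 2, 4, 1 and 2 against 6, 6 and 0 in males. A count of 0 allows up to 3 counts, which is 0.0855 CPM in that female control and 0.186 CPM in that male. The log2 fold change of Cnn1 in all mice was 1.41 ± 0.52 (adjusted p = 0.0804), with a 95% interval of 0.34 to 2.48. It was not called, although it was in 3 of 28 fits with 1 mouse left out (adjusted p from 0.0324 to 0.184 over the 28), namely without female PSD + restraint mouse 2, male control 2 or male PSD + restraint mouse 3.

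Among the pericyte genes, Notch3 rose in the model of all mice and Rgs5 and Pdgfrb were not called. Notch3, a receptor that mural cells need for their maturation, had 21.4, 18.0, 17.2 and 15.5 CPM in female controls and 23.3, 21.7, 25.7 and 21.3 CPM after PSD + restraint. In males it had 15.1, 20.2, 15.6 and 16.3 CPM in controls and 23.3, 29.1 and 16.6 CPM after PSD + restraint. The groups overlapped by 1 mouse in each sex. Its log2 fold change was 0.36 ± 0.12 in females (adjusted p = 0.119), 0.47 ± 0.15 in males (adjusted p = 0.127) and 0.40 ± 0.10 in all mice (adjusted p = 0.00819). It was 0.41 without the 3 mice that stood apart (adjusted p = 0.0133), and without male PSD + restraint mouse 2 it fell to 0.31, under the size limit.

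Pdgfrb, through which endothelial PDGF recruits pericytes, had 16.4 to 21.8 CPM in females and 14.1 to 23.1 CPM in males after PSD + restraint, against 17.1 to 20 CPM and 16.6 to 21.7 CPM in controls. Its log2 fold change in all mice was 0.03 with an interval of -0.14 to 0.21. Rgs5 had 33 to 43.2 CPM in females and 35 to 42.5 CPM in males after PSD + restraint, against 32.8 to 40.2 CPM in female controls and 42.4 to 54.5 CPM in male controls. Its log2 fold change was 0.14 ± 0.12 in females, -0.28 ± 0.13 in males (adjusted p = 0.306) and -0.05 in all mice, with an interval of -0.26 to 0.15. The intervals of Pdgfrb, Rgs5, Des and Myh11 in all mice lie below the estimate of Tagln (0.87), although differences between genes were not tested.

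**Figure D2:**
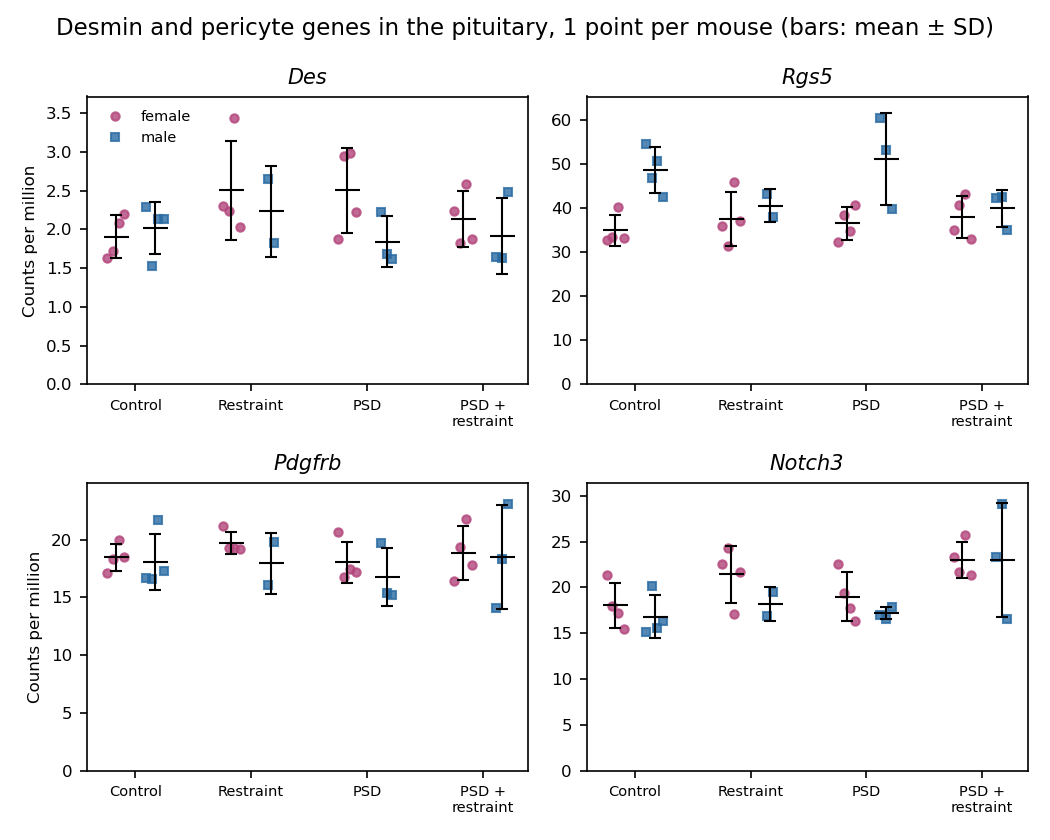
CPM (y axis, from 0) of desmin and the 3 pericyte genes in each mouse, by treatment (x axis), with females as circles and males as squares and the mean ± SD as black bars. Notch3 has its highest mean after PSD + restraint in each sex, with an overlap of 1 mouse with the controls. Mice of both single treatments also overlap with that group, and Rgs5 is higher in male than in female controls.

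PSD without restraint was compared with home cage controls, which are the same controls as above. Acta2 and Tagln were called higher in the model of all mice, 2 of 9 genes against 0.671% of genes tested. Among the 8 genes other than Acta2, 1 was called. The log2 fold change of Acta2 was 0.61 ± 0.15 (adjusted p = 0.048). That of Tagln was 0.53 ± 0.12 (adjusted p = 0.0349), and for each gene 6 of 7 PSD mice lay above all 8 controls. Since Acta2 was chosen on a comparison with these controls, its call is not independent of that choice. Both adjusted p-values were close to the limit. Acta2 lost its call in 19 of 28 fits with 1 mouse left out (adjusted p from 0.0289 to 0.123), and Tagln in 9 of 28. Without the 3 mice that stood apart neither was called, at 0.50 for Acta2 (adjusted p = 0.115) and 0.49 for Tagln (adjusted p = 0.0798). For Myl9 the value was 0.23 ± 0.05 on the log2 scale (adjusted p = 0.0351), below the size limit.

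Within each sex no member was called after PSD alone. The share of genes called was 0.0277% in females and 0.00547% in males, and 3 of the 8 members tested, Acta2, Tagln and Myl9, had an unadjusted p under 0.05 in each sex, as did 19.8% of genes tested in females and 8.85% in males. With DESeq2, which called 442 genes in females and 85 in males, 0 members were called in females and 1 in males. Tagln had 13.3, 11, 12.5 and 8.14 CPM in females after PSD and 12.9, 11.9 and 13.7 CPM in males, and the males lay above all male controls. Its log2 fold change was 0.47 ± 0.17 in females (adjusted p = 0.167) and 0.60 ± 0.14 in males (adjusted p = 0.229). Myl9 had 14.9, 15.7, 14.1 and 14.9 CPM in females and 18.0, 16.8 and 16.9 CPM in males, above all controls of the same sex. Its log2 fold change was 0.27 ± 0.08 in females (adjusted p = 0.136) and 0.20 ± 0.07 in males (adjusted p = 0.403). Notch3 stood at 0.05 ± 0.10 in all mice after PSD alone and was not called.

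Restraint without PSD was followed by no call among the 9 members in the model of all mice, where 1.14% of genes tested were called. Of these members 1 had an unadjusted p under 0.05, as did 10.3% of genes tested. DESeq2 called 0 members and 282 genes in all. Within the sexes 0 of 8 members tested were called, against 0.543% of genes in females and 0.296% in males. In each sex 0 members had an unadjusted p under 0.05 and 0 were called with DESeq2. DESeq2 called 211 genes in females and 102 in males. The log2 fold change in all mice was 0.16 ± 0.16 for Acta2, 0.29 ± 0.12 for Tagln (adjusted p = 0.377), 0.21 ± 0.10 for Notch3 and 0.05 ± 0.05 for Myl9.

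The remaining comparisons set the combined treatment against each single treatment. Between restrained mice with and without PSD, 0 of 8 members other than Acta2 were called in all mice, against 0.0951% of genes. Of these members 3 had an unadjusted p under 0.05 (13.5% of genes), and DESeq2 called 1, with 65 genes called in all. Tagln was higher by 0.59 ± 0.13 on the log2 scale there (adjusted p = 0.0637) and lay above every restrained mouse without PSD in 7 of 7 mice. Acta2 was higher by 0.80 ± 0.16, with the same lack of overlap. Between PSD mice with and without restraint, 0 of 8 were called against 2.01% of genes, with 2 at an unadjusted p under 0.05 (13.8% of genes). DESeq2 called 1 of the 8, with 430 genes called in all. Notch3 was higher by 0.35 ± 0.10 (adjusted p = 0.0597) and Tagln by 0.35 ± 0.12 (adjusted p = 0.129). The interaction of PSD and restraint called 0 of 8 members with edgeR, against 0% of genes, with 0 at an unadjusted p under 0.05 and 0 called with DESeq2. For Tagln the interaction was 0.06 with an interval of -0.29 to 0.42, so neither an effect above nor one below the sum of the single treatments was detectable.

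**Figure D3:**
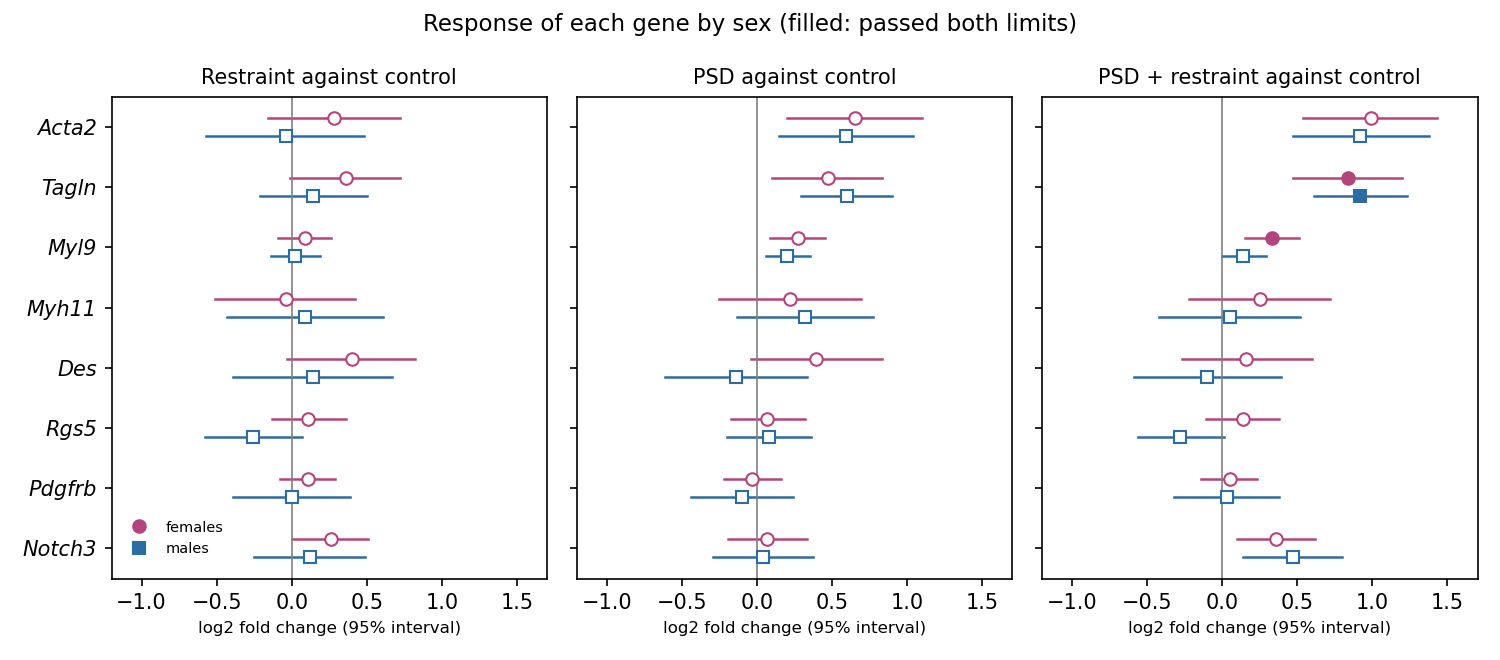
Log2 fold change against home cage controls (x axis) with its 95% interval for 8 genes (y axis) after restraint, PSD and PSD + restraint, with females as circles and males as squares and filled symbols for genes called in that sex. Tagln in both sexes and Myl9 in females are filled after PSD + restraint, Acta2 is drawn unfilled there because it was not tested, and no symbol is filled after the single treatments.

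Rgs5 was the only member whose level was called different between the sexes in controls, a count close to the share over all genes. No response of a tested member differed detectably between the sexes. In home cage controls Rgs5 had 32.8, 33.3, 40.2 and 33.2 CPM in females and 54.5, 46.7, 50.6 and 42.4 CPM in males, with no overlap. Its log2 difference, female minus male, was -0.48 ± 0.12 (adjusted p = 0.0102), the only call among the 9 members, where 10.7% of genes tested were called. Myl9 was lower in female controls by a log2 difference of -0.27 ± 0.07 (adjusted p = 0.0103), below the size limit. Over all treatments the sex term called 0 of 9 members with edgeR and with DESeq2, against 14.9% of genes, with 3 at an unadjusted p under 0.05 (43.1% of genes). There Rgs5 stood at -0.31 ± 0.07 (adjusted p = 0.00198), just under the size limit. The difference between the sexes in the response to PSD + restraint called 0 of 8 members with edgeR, against 0% of genes. With DESeq2 it called 0 of the 8, with 10 genes called in all. With edgeR 1 member had an unadjusted p under 0.05 (7.2% of genes). That member was Rgs5, with a log2 difference of responses of 0.41 ± 0.18 (adjusted p = 0.683). For Tagln the difference of responses was -0.10 with an interval of -0.59 to 0.40.

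The genes around this set were described by counts on lists of related genes, without a test of the lists. These lists were chosen with earlier results of these data known, so their counts are descriptions and not independent of those results. After PSD + restraint in all mice, the 8 members other than Acta2 had a median log2 fold change of 0.20, where the median of all genes tested was 0 and 5.46% of genes were called in either direction. Of 19 other contractile genes tested, 0 were called higher and 1 lower, with a median of 0.04, a count close to the share over all genes. The lower gene was Ppp1r14a, an inhibitor of myosin phosphatase, at -0.53 ± 0.17 (adjusted p = 0.0386). Without the 3 mice that stood apart, and in 9 of 28 fits with 1 mouse left out, it was not called. Tpm1 (0.21), Actn1 (0.28), Flna (0.23) and Csrp1 (0.28) had an adjusted p under 0.05 but lay below the size limit, and 12 of the 19 genes had positive values. Over the 28 mice, centred within sex, the log2 of the contractile list's sum had a correlation of 0.74 with Acta2 and 0.70 with Tagln. Centred within group these correlations were 0.67 and 0.43. Of 16 other pericyte genes tested 1 was called higher, with a list median of 0.06, again close to that share. Defining pericyte genes such as Kcnj8 and Abcc9, the subunits of a vascular potassium channel, stood at 0.09 and 0.02 and were not called.

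Of 9 regulators tested, 1 was called higher, Srf itself, at 0.44 ± 0.07 (adjusted p = 4.85e-05), with a list median of 0.06. Of 10 SRF target genes of the general cytoskeleton and matrix, 4 were called higher and 0 lower, with a median of 0.21. They were Tpm4, a tropomyosin, at 0.52 ± 0.10 (adjusted p = 0.00125), Ctgf at 0.69 ± 0.16 (adjusted p = 0.00676), Cyr61 at 0.93 ± 0.23 (adjusted p = 0.00955) and Filip1l. Ctgf and Cyr61 encode secreted matricellular proteins. After restraint alone 0 of these 10 genes were called, but 9 had positive values, with a median of 0.18, Cyr61 at 0.81 (adjusted p = 0.0974) and Srf at 0.29 (adjusted p = 0.0222), below the size limit. After PSD alone 0 of 10 were called, the median was 0 and Srf stood at 0.01. Over the 28 mice, centred within sex, the correlation of the list's log2 sum with Acta2 was 0.09 and with Tagln 0.22. Most of this sum was Actg1 and Actb, with medians of 595 and 547 CPM. The beta and gamma actin genes Actb (0.09) and Actg1 (0.14) were not called.

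Of 16 PDGF and Notch genes, 4 were called higher and 0 lower, with a median of 0.12. Hey1, a transcriptional target of Notch, stood at 0.47 ± 0.08 (adjusted p = 0.000226), the Notch ligand Jag1 at 0.40 ± 0.09 (adjusted p = 0.0047) and the ligand Pdgfa at 0.42 ± 0.13 (adjusted p = 0.0332), and Pdgfd was the fourth. The list's other Notch targets were not called, with Hes1 at -0.18, Heyl at -0.03, Hey2 at 0.02 and Nrarp at 0.10. Pdgfb, the ligand that endothelial cells present to pericytes, stood at 0.08 and was not called. After restraint alone 1.14% of all genes tested were called, and the lists together held 1 call, close to that share. It was the Notch target Hes1, at -0.44 ± 0.10 (adjusted p = 0.0217). After PSD alone the lists held 0, where 0.671% of genes were called. With DESeq2 1 pericyte and 1 PDGF or Notch gene were called there, with 286 genes called in all. Filip1l and Pdgfd lie outside the limit of 3 named genes per list and were named after their values had been seen, as were the uncalled genes given by value.

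**Figure D4:**
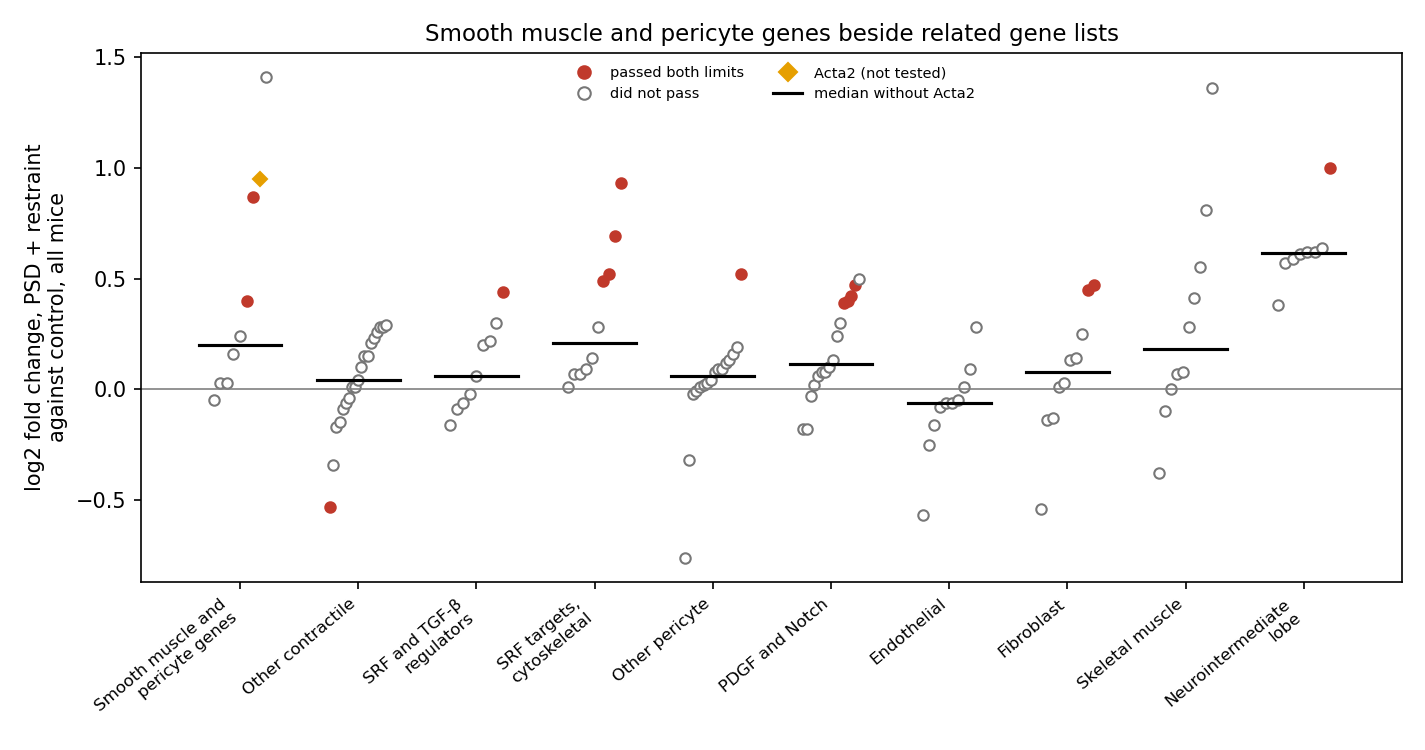
Log2 fold change after PSD + restraint in all mice (y axis) for each gene of the set and of 9 related lists (x axis), with red points for called genes, open points for genes not called, a diamond for Acta2 and a black bar for the median without Acta2. The median is 0.20 for the other 8 genes of the set, 0.04 for other contractile genes, 0.06 for other pericyte genes and 0.62 for neurointermediate lobe markers.

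In bulk tissue, fewer cells of a type and less RNA per cell cannot be told apart, so markers of other cells are given beside these results. After PSD + restraint 5.46% of all genes tested were called. Of 10 endothelial markers 0 were called there, with a median log2 fold change of -0.06. Pecam1, at -0.25 (adjusted p = 0.0448), lay below the size limit. The summed level of the endothelial markers was 203 to 221 CPM in female controls and 200 to 266 CPM in females after PSD + restraint. In males it was 215 to 267 CPM and 189 to 223 CPM. Of 10 skeletal muscle markers 0 were called, with a median of 0.18 and a summed level of 8.25 to 15.6 CPM over all groups, and Myl1 was at 0 in 1 mouse. Of 10 fibroblast markers 2 were called higher, Mgp at 0.47 ± 0.09 and Islr at 0.45 ± 0.12, with a median of 0.08 and a summed level of 423 to 653 CPM over all groups.

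The summed level of neurointermediate lobe markers was 773 to 1170 CPM in female controls, 1200 to 2920 CPM after PSD and 1160 to 1910 CPM after PSD + restraint. In males it was 238 to 1170 CPM in controls, 1180 to 1670 CPM after PSD and 1210 to 2170 CPM after PSD + restraint. Most of this sum was Pcsk2, with a median of 1080 CPM over the 28 mice. Pax7 came next at 51.5 CPM, so the sum and its correlations mainly describe Pcsk2. After PSD alone 0 of the 8 markers were called, against 0.671% of genes tested, and Pcsk2 stood at 0.98 (adjusted p = 0.0544). Of the 8 markers 1 was called higher after PSD + restraint, Pcsk2 at 1 ± 0.25, where 5.46% of genes were called. All 8 had positive log2 fold changes, and none was at 0 in any mouse. Over the 28 mice, centred within sex, the log2 of this sum had a correlation of 0.72 with Acta2 and 0.49 with Tagln, and centred within group of 0.50 and -0.06. Folliculostellate markers summed to 440 to 618 CPM in female controls and 571 to 675 CPM after PSD + restraint. In males they summed to 495 to 586 against 509 to 642 CPM. Most of this sum was Cyp2f2 and Aldoc, with medians of 346 and 144 CPM over the 28 mice. Of the 6 markers 0 were called and none was at 0, and Cyp2f2 at 0.27 (adjusted p = 0.0423) lay below the size limit. Macrophage markers had 1 of 5 called, Cd68 at 0.40 ± 0.09. The folliculostellate sum had correlations of 0.65 with Acta2 and 0.53 with Tagln centred within sex, and of 0.58 and 0.43 centred within group. For the macrophage sum they were 0.55 and 0.63 within sex and 0.17 and 0.41 within group, and for the endothelial sum -0.27 and -0.40 within sex and -0.33 and -0.57 within group. Red blood cell markers had 0 of 4 called, with a median of -0.50. Forebrain markers had 0 of 5 called, with a median of 0.29 and a summed level of 55.1 to 137 CPM in all mice other than the 2 females that stood apart, which had 333 and 244 CPM. The part of these cells in the result was not tested.

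The members did not vary together as a set. Over 28 mice, with log2 CPM centred within sex, Pearson's correlation with Acta2 was 0.83 for Tagln, 0.72 for Myl9, 0.67 for Cnn1, 0.56 for Notch3 and 0.34 for Myh11. It was -0.12 for Des, -0.12 for Pdgfrb and -0.16 for Rgs5. Centred within group, so that the treatment means no longer contribute, it was 0.47 for Tagln, 0.30 for Myl9, 0.62 for Cnn1 and 0.41 for Notch3. Cnn1 had only 0 to 7 counts in a mouse, so its values hold much counting error. Tagln and Rgs5 went in opposite directions among mice of the same group, with a correlation of -0.65. All these points share their libraries and depths, and the values are descriptions.

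**Figure D5:**
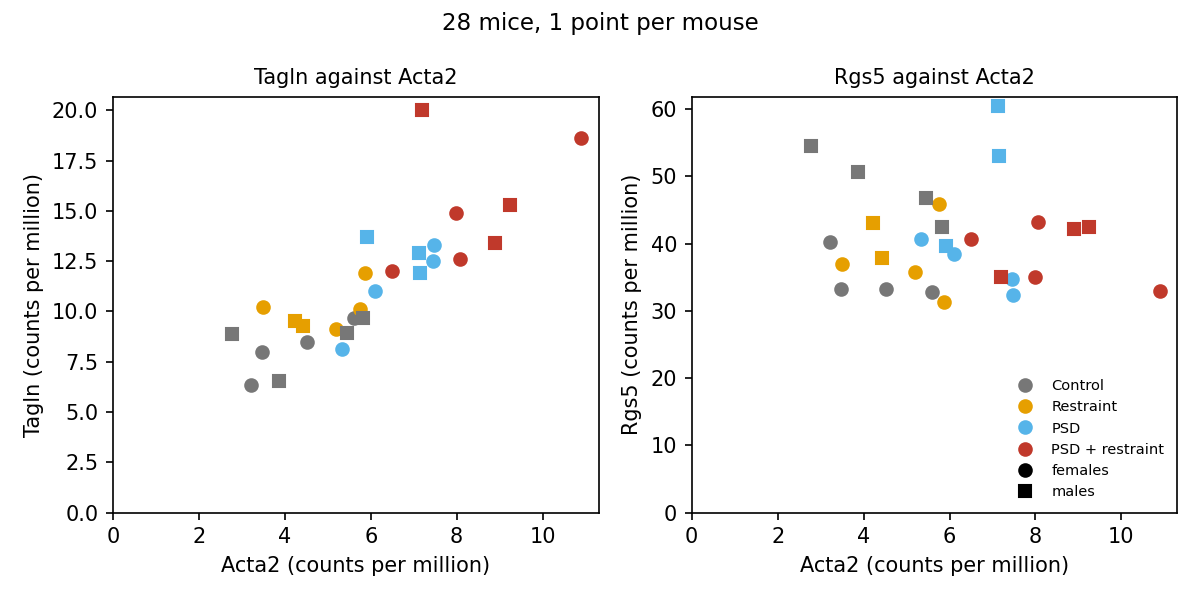
Tagln (left, y axis) and Rgs5 (right, y axis) against Acta2 (x axes), all in CPM, with 1 point per mouse, colours for the 4 treatments, circles for females and squares for males. Tagln follows Acta2 from the controls to the PSD + restraint mice, with a correlation of 0.83 on centred log2 values, whereas for Rgs5 it is -0.16.

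Among 15453 other genes with a mean of at least 1 CPM, those most like Acta2 over the 28 mice, by the correlation centred within sex, were Slc7a3 (0.83), Tspan4 (0.82), Cys1, Adm2, Cd302 and Epdr1 (0.81 each). Centred within group these 6 ranged from 0.38 for Cys1 to 0.67 for Cd302. The genes most like the mean of the other 8 members were Ltbp1 (0.87), Tspan4 (0.78), Tmc7 (0.77), Dusp4 (0.75), Map3k9 (0.75) and Cav2 (0.74). Each member was divided by its SD before that mean, so the low counts of Cnn1 weighed as much as the others. Ltbp1, which encodes a protein that stores latent TGF-β in the matrix, kept a correlation of 0.78 centred within group, and Tspan4 was on both lists of 6.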

How the data were processed

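RNA from whole pituitaries was sequenced as stranded mRNA libraries with paired 76-base reads, 1 library per mouse. The authors aligned the reads to mm10 with MapSplice and deposited raw counts per gene, made with HTSeq 0.9.1 in its intersection-nonempty mode on UCSC gene models. Whether HTSeq counted by strand is not given in the sources used here. The authors' own fit used DESeq2 1.16.1, per the labels and the methods. A second deposited table of normalized values was not used. All 28 count columns matched a mouse by name.

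The members and the gene lists were chosen with earlier results of these data known. Counts were tested with edgeR 4.0.16 (quasi-likelihood test, TMM scaling, filterByExpr) in R 4.3.3, with Benjamini-Hochberg adjustment over all genes tested. PSD, restraint and their interaction were fitted in all mice with a term for sex, in each sex alone, and with a mean for each of the 8 groups for differences between the sexes. Calls needed an adjusted p of at most 0.05 and a change of 0.322 or more on the log2 scale, in either direction. Alternatives were DESeq2 1.42.0, DESeq2 size factors, no filter on low counts, at least 10 counts in every mouse, only the groups compared, a replicate block, no limit on the fold change, each mouse left out in turn and, added after seeing the data, the 3 mice that stood apart left out together. CPM were scaled by TMM, and log2 CPM used a prior count of 2. Levels per kilobase used exon lengths of GENCODE M21, which are not the models the authors counted on. Named genes were the 9 members, at most the 3 called genes with the smallest p per list and direction, and the 6 genes most like Acta2 and most like the mean of the other 8 members. The values of 1 called gene of the lists are not reported here. No 2 mice of a group had the same counts within sampling noise (over 37 pairs, the chi-square divided by its degrees of freedom was at least 7.86). The fits were tested on simulated data. Intervals and the limit that a count of 0 allows (3 counts) cover counting error or the spread between these mice only. The mice are separate animals, but 4 shared a cage and tank, and which mice did so is not in the labels.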

Additional observations from a re-analysis of the deposited data

Results flagged for a closer look

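In groups of 4 mice, a value was looked at again when its gap to the nearest mouse took up nearly all of the group's range (above Dixon's 95% critical value). This held in 4 of the 45 groups of a gene examined, where chance flags about 1 in 20. Female control mouse 3 had 40.2 CPM of Rgs5, above the other 3 at 32.8 to 33.3 CPM. Restrained female 1 had 21.2 CPM of Pdgfrb, where the other 3 had 19.2 to 19.3 CPM. Male control 3 had 21.7 CPM of Pdgfrb against 16.6 to 17.3 CPM in the others. Male control 2 had 0.111 CPM of Cnn1, which is 4 counts, against 0.0355 to 0.048 CPM. None of the 9 members differed between the sexes in its response to PSD or restraint by the test of that difference, and the same held for the 8 members other than Acta2 after PSD + restraint.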

How the results depend on the processing

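Tagln after PSD + restraint kept its call in all mice and in males under every alternative and in every fit with 1 mouse left out, and the log2 fold change of Acta2 there stayed between 0.88 and 1.02 with 1 mouse left out. The calls of Acta2 and Tagln after PSD alone were the least steady. Where members called changed, 2 in all mice after PSD became 1 with no filter on low counts, and 0 with the replicate block, with only the groups compared and without the 3 mice that stood apart, and with 1 mouse left out it ran from 0 to 2. In females after PSD + restraint, 2 became 1 with no filter, with the block, with only the groups compared and without the 3 mice, and ran from 0 to 2. DESeq2 called 1 member in place of 0 in males after PSD and in restrained males with against without PSD. It called 85 and 123 genes there, where edgeR called 1 each. The same held in all mice for restraint after PSD and for PSD among restrained mice, with 430 and 65 genes against 381 and 18. Restraint after PSD also gave 1 without the 3 mice. With 1 mouse left out these 2 comparisons in all mice gave 0 to 1, PSD + restraint gave 1 to 3 in all mice and 1 to 2 in males, and the sex term 0 to 1. With no limit on the fold change the sex term called 2. The cause was not tested.

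Replicate numbers did not pair the mice. Same-numbered mice of a sex had correlations of -0.35 to 0.33 in females and -0.22 to 0.12 in males, so the block is given here only. It moved genes called after PSD in all mice from 127 to 40, and after PSD + restraint from 1034 to 872. Adjusted p under the block was 0.0842 for Acta2 and 0.058 for Tagln after PSD.

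Among lists after PSD + restraint, the contractile call became 0 with the block, only the groups compared or without the 3 mice, and 5 with no limit on the fold change. The pericyte call became 0 with the block and with only the groups compared, and PDGF and Notch calls became 2 with the block. With 1 mouse left out these ran from 0 to 1, 0 to 1 and 2 to 5. After PSD, 1 pericyte gene was called with DESeq2 and with 10 counts in every mouse, and 1 PDGF or Notch gene with DESeq2, and each ran from 0 to 1. After restraint 1 SRF target was called with DESeq2, with only the groups compared and without the 3 mice, 1 regulator with no limit on the fold change, and 0 PDGF or Notch genes with only the groups compared. Each ran from 0 to 1.

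Changes of sign touched only values that were not called. Pdgfrb in males after restraint was 0 with DESeq2 size factors and with no filter. Under the block Acta2 in males after restraint was 0.10, Rgs5 in males after PSD 0 and Myh11 in males after PSD + restraint -0.04. Myh11 in all mice after restraint was 0 with DESeq2 size factors and 0.01 with only the groups compared and without the 3 mice. Also without the 3 mice, Notch3 after PSD was -0.03 in females, -0.01 in males and -0.02 in all mice, Pdgfrb in males after PSD + restraint -0.01, Rgs5 in all mice after PSD + restraint 0 and Acta2 by sex -0.10. With 1 mouse left out, the log2 fold changes that changed sign ran as follows. In females after restraint Myh11 ran from -0.20 to 0.12 and Rgs5 from 0 to 0.19, after PSD Pdgfrb from -0.11 to 0 and Notch3 from -0.03 to 0.16, and after PSD + restraint Pdgfrb from -0.04 to 0.10. In males after restraint Acta2 ran from -0.23 to 0.11, Myh11 from -0.13 to 0.28, Des from -0.14 to 0.40 and Pdgfrb from -0.16 to 0.14, after PSD Rgs5 from -0.06 to 0.23 and Notch3 from -0.01 to 0.14, and after PSD + restraint Myh11 from -0.16 to 0.23, Des from -0.31 to 0 and Pdgfrb from -0.15 to 0.20. In all mice Myh11 ran from -0.08 to 0.08 and Rgs5 from -0.13 to 0.01 after restraint, Rgs5 from -0.01 to 0.10 after PSD, Des from -0.05 to 0.07 and Pdgfrb from -0.04 to 0.09 after PSD + restraint, and Acta2 by sex from -0.04 to 0.05.

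Depth limits Cnn1, with at most 7 counts in a mouse, and 2 restrained males limit comparisons in males. Of 868 values recomputed under other settings 813 were labelled the same, as were 2384 of 2576 with 1 mouse left out. For a tested gene this label meant the same direction and side of the threshold. For counts of calls, correlations and untested values of Acta2, a limited shift was also labelled the same.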
